A study of Mus musculus with 10 samples.

Results

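Acute-phase proteins are plasma proteins whose production by the liver changes steeply during inflammation, and 10 of their genes were followed here in the fetal liver of mice without the paternal copy of the microRNA gene Mir483. The genes were found by matching the Ensembl identifiers of the count table to their symbols. They were the serum amyloid A genes Saa1, Saa2, Saa3 and Saa4, the orosomucoid genes Orm1 and Orm2, the haptoglobin gene Hp, the hemopexin gene Hpx, the lipocalin 2 gene Lcn2 and the serum amyloid P gene Apcs. All 10 were found among the 55401 genes of the table, and 7 of them passed the filter on low counts, whereas Saa1, Saa2 and Orm2 did not. At an adjusted p under 0.05, Hp was lower in the mutants and Saa4 was higher, and the other 5 tested genes did not pass. Over all tested genes 2.76% passed lower and 2.43% higher. The call of Hp and that of Saa4 were each lost in 10 of 20 alternative fits.

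Inflammation raises the acute-phase genes of hepatocytes mainly through interleukin 6, which signals through gp130, JAK kinases and STAT3, and through interleukin 1 and tumour necrosis factor, which signal through NF-kB. Factors of the C/EBP family bind many of these promoters, and SOCS3 is a feedback inhibitor of the interleukin 6 route. Several of the proteins have a baseline role as carriers: haptoglobin binds free haemoglobin, hemopexin binds free haem, and lipocalin 2 binds the siderophores with which bacteria take up iron. The fetal liver is also the main site of blood formation before birth, and developing neutrophils and macrophages make some acute-phase proteins themselves.

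PolyA RNA of whole livers from 10 female fetuses at E18.5 was sequenced, with 5 Mir483Pat-KO and 5 WT littermates. Mir483Pat-KO fetuses inherited from the father a constitutive, Cre-made deletion of Mir483, which lies in an intron of the paternally expressed gene Igf2. The allele was made in C57BL/6N embryonic stem cells, more than a single clone of which was injected, and the line was kept on C57BL/6J. The labels do not give the litter of a fetus, so the p-values measure the spread between these fetuses. Because whole livers were sequenced, fewer cells of a type and less RNA per cell cannot be told apart.

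Libraries held 10831350 to 14765880 counts. Mir483 had 11, 10, 22, 21 and 12 counts in the WT libraries and 0 in all 5 Mir483Pat-KO libraries, which allows up to 3 counts, or 0.197 to 0.271 CPM, across the libraries. CPM are counts per 1000000 of the library total adjusted by TMM. The identification numbers of the fetuses fell into a lower range, with 4 WT and 2 Mir483Pat-KO libraries, and an upper range, with WT replicate 5 and Mir483Pat-KO replicates 3, 4 and 5. What the ranges stand for is not given, and values that moved with them are described beside the gene.

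The deleted gene produces a pair of mature microRNAs. Their sequences are shown with the seed, bases 2 to 8, in capitals because a match to the seed in a 3′ UTR is the usual mark of a possible target. Positions and sequences are those of RefSeq (GRCm38.p6).
mmu-miR-483-3p, chr7:142654932-142654952 (minus strand): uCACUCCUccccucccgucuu
mmu-miR-483-5p, chr7:142654968-142654989 (minus strand): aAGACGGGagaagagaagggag
Among the 10 genes, only Saa3 held the 7-base complement of the miR-483-3p seed in its longest annotated 3′ UTR, and none held that of miR-483-5p. Of the 21045 genes with an annotated 3′ UTR, 10.7% held the first and 2.68% the second. The Saa3 match, in capitals, is shown with its flanks.
Saa3 match, chr7:46713557-46713563 (minus strand): ttacctctgaAGGAGTGctgagaactg
It lay in the 3′ UTR of a coding transcript with 2 exons and a length of 2200 bases. In the other coding transcript of the gene, with 4 exons and 555 bases, the same position was intronic and the 3′ UTR held no match.

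The 4 serum amyloid A genes form a cluster on chromosome 7 (GRCm38). From low to high coordinates it held Saa3 (46711998 to 46715700), Saa4 (46727998 to 46732603) and Saa1 (46740497 to 46742980), all on the minus strand, and Saa2 (46751790 to 46754313) on the plus strand. Their promoters are printed because these neighbours were transcribed at widely different levels in the same livers. Each runs from 250 bases before to 50 bases after the RefSeq start site (GRCm38.p6), and capitals mark matches to the C/EBP motif TTGCNNAA on either strand.
Saa1, chr7:46742931-46743230 (minus strand): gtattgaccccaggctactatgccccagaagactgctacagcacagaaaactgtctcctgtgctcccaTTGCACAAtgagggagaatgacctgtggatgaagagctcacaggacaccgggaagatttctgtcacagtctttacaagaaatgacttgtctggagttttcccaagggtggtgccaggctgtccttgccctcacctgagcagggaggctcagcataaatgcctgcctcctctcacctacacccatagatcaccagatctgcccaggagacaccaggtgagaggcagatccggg
Saa2, chr7:46751583-46751882 (plus strand): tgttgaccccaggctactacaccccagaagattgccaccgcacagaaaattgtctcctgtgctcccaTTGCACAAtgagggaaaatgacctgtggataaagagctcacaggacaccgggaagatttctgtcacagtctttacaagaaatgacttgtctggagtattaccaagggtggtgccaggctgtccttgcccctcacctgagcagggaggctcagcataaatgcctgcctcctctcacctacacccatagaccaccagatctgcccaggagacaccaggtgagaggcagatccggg
Saa3, chr7:46715627-46715926 (minus strand): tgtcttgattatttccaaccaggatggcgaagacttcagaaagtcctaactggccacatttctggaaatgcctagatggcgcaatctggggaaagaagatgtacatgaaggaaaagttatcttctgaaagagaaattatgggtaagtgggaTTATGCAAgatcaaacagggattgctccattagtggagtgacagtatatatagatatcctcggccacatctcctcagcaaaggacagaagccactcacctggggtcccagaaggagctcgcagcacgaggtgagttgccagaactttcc
Saa4, chr7:46732554-46732853 (minus strand): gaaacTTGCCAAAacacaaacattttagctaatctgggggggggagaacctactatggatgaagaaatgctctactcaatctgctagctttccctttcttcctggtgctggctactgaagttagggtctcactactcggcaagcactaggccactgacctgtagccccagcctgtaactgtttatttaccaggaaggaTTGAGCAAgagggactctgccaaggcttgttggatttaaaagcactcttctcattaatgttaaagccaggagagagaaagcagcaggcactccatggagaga
The Saa1 and Saa2 promoters were identical at 95.3% of aligned positions, whereas those of Saa1 and Saa3 were identical at 49.8% and those of Saa1 and Saa4 at 45.9%. The C/EBP match began 182 bases before the start site in Saa1, 183 in Saa2, 99 in Saa3, and 245 and 52 in Saa4. Of the 8 genes with a promoter entry, 7 held such a match, Apcs being the exception, compared with 10.8% of the 32851 promoters of the table. A STAT motif, TTCNNNGAA, was found only in Apcs (8.3% of all promoters). Neither the NF-kB motif GGGRNNYYCC (8.46%), where R is A or G and Y is C or T, nor the HNF1 motif GTTAAT (7.1%) was found in any of the 8. Only exact matches were searched for, so binding sites that differ from these patterns would be missed. Orm1 and Hp had no entry. The searched motifs did not overlap with each other in these promoters.

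The genes differed widely in level. Per kilobase of the longest coding transcript, Hp was the most abundant in WT livers, with 1046 ± 203 CPM per kb (SD, n = 5). It was followed by Hpx with 560 ± 32.4, Apcs with 497 ± 35.5 and Lcn2 with 251 ± 31.9 CPM per kb. Saa4 reached 29.8 ± 2.21, Saa3 10.6 ± 3.85 and Orm1 2.26 ± 0.832 CPM per kb. Each of these neighbours kept its place in all 5 WT and all 5 Mir483Pat-KO libraries, although the WT ranges of Hpx and Apcs overlapped. Saa1, Saa2 and Orm2 had at most 2 counts in any library, so their order cannot be given. The place of Saa3 depends on the transcript: over the transcript of 555 bases instead of that of 2200 bases, its WT level was 42.1 ± 15.2 CPM per kb, above that of Saa4 on average, with overlapping ranges. The level of Hpx over its shorter transcript of 592 bases was 1417 ± 82.1 CPM per kb, which would place it above Hp.

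**Figure D1:**
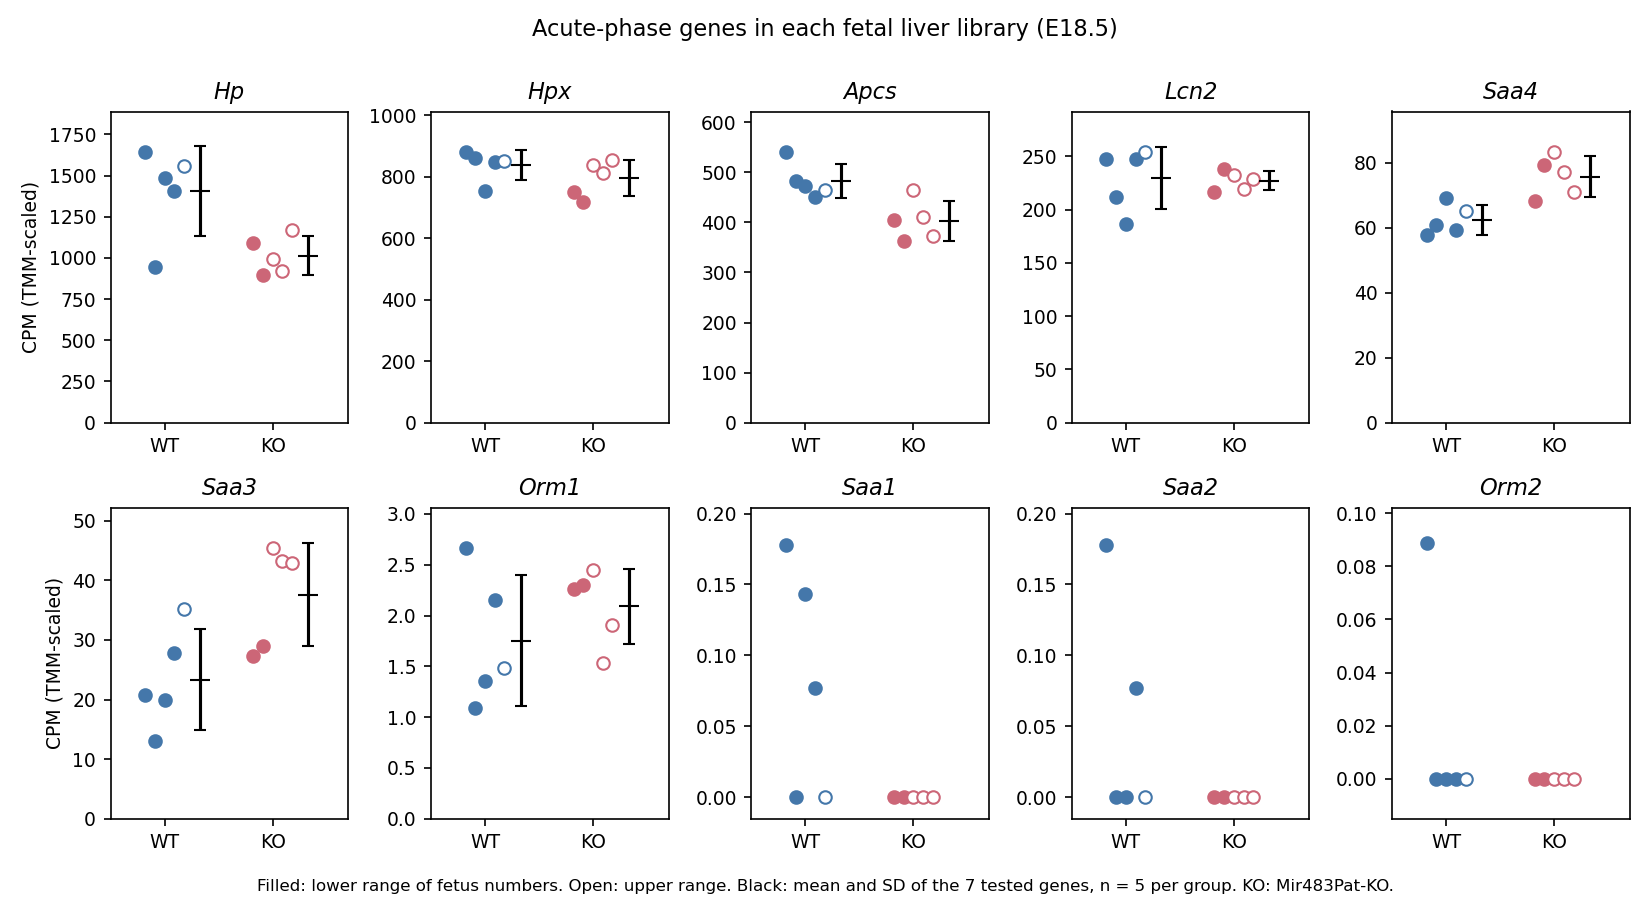
CPM of the 10 acute-phase genes in each library, 1 panel per gene, with WT in blue and Mir483Pat-KO (KO) in red, filled points for the lower and open points for the upper range of fetus numbers, and black bars for the mean and SD (n = 5) of the 7 tested genes. In the Hp panel 4 of the 5 WT points lie above all Mir483Pat-KO points, and in the Saa3 panel the open points are the highest of each group.

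Haptoglobin captures haemoglobin released from red cells and delivers it to macrophages. Hp (chromosome 8, 109575128 to 109579172, GRCm38) measured 1643, 944, 1483, 1408 and 1556 CPM in WT replicates 1 to 5. In Mir483Pat-KO replicates 1 to 5 it measured 1092, 897, 991, 918 and 1173 CPM. WT replicate 2 was low and lay within the Mir483Pat-KO range, and the other WT libraries were above all mutants. Hp fell 1.39-fold in Mir483Pat-KO (log2 fold change −0.47, SE 0.12, adjusted p = 0.0377, edgeR quasi-likelihood test). Over all tested genes, 2.76% passed with a lower level. Without WT replicate 2 the log2 fold change was −0.59 (adjusted p = 0.00265). The call was lost (adjusted p between 0.0678 and 0.0996) when WT replicate 1, 3, 4 or 5 or Mir483Pat-KO replicate 2, 3 or 4 was left out, and also in a robust fit (adjusted p = 0.0501) and with offsets for GC content and length (−0.39, adjusted p = 0.0530). Within the lower range of fetus numbers alone, the log2 fold change was −0.46 (adjusted p = 0.283), and over all 20 alternatives the adjusted p ran from 0.000154 to 0.283.

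Hemopexin binds free haem and carries it to hepatocytes, a task next to that of haptoglobin. Hpx (chromosome 7) measured 881, 860, 755, 847 and 852 CPM in WT replicates 1 to 5 and 752, 719, 837, 814 and 855 CPM in Mir483Pat-KO replicates 1 to 5. The groups overlapped, with Mir483Pat-KO replicates 1 and 2 below all WT libraries. The log2 fold change was −0.08 (SE 0.07, adjusted p = 0.559). The ratio of Hp to Hpx in CPM was 1.87, 1.10, 1.96, 1.66 and 1.83 in WT and 1.45, 1.25, 1.18, 1.13 and 1.37 in Mir483Pat-KO. All 5 mutant ratios lay below those of WT replicates 1, 3, 4 and 5 and above that of WT replicate 2, which again lay apart from the other WT libraries.

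Apcs (chromosome 1) encodes serum amyloid P component, a pentraxin that is the main acute-phase pentraxin of the mouse. It measured 540.4, 483, 473, 451 and 465 CPM in WT replicates 1 to 5. In Mir483Pat-KO it measured 405, 364, 464, 410.6 and 372 CPM. In 4 Mir483Pat-KO livers it was under every WT value, and replicate 3 reached the WT range. The log2 fold change was −0.26 (SE 0.08), and the adjusted p of 0.0616 missed the threshold. It was 0.0261 without Mir483Pat-KO replicate 3, 0.0140 with DESeq2, 0.0462 without the filter on low counts, and 0.00348 with the GC content and length offsets, where the log2 fold change was −0.38, and ran up to 0.172 over the 20 alternatives.

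For Hp and Apcs the summed level of 12 hepatocyte markers is given beside the result. These markers, several of which are also listed as acute-phase genes below, summed to 247880 to 274741 CPM in WT and 229944 to 262164 CPM in Mir483Pat-KO. Albumin (124562 CPM) and transferrin (51389 CPM) were the largest parts of the WT mean of 262239 CPM. Per 1000 CPM of the 12 markers, WT livers had 5.38 ± 1.10 CPM of Hp and the mutants 4.22 ± 0.555 CPM (SD, n = 5). On the same scale Apcs measured 1.84 ± 0.144 and 1.68 ± 0.219 CPM, Hpx 3.20 ± 0.204 and 3.32 ± 0.419 CPM, and Saa4 0.238 ± 0.0183 and 0.316 ± 0.0371 CPM. The mean of Hpx was thus higher in the mutants on this scale. The ranges of the groups overlapped for all 4 genes, and the part of the hepatocyte markers in the results was not tested.

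Saa4 encodes the serum amyloid A protein that is made constitutively rather than on inflammation. It measured 57.9, 60.8, 69.1, 59.3 and 65.2 CPM in WT replicates 1 to 5. In Mir483Pat-KO it measured 68.1, 79.3, 83.3, 77.1 and 71.0 CPM. In 4 Mir483Pat-KO livers it was over every WT value, and replicate 1 lay just below WT replicate 3. Saa4 rose 1.21-fold (log2 fold change 0.28, SE 0.07, adjusted p = 0.0416), where 2.43% of all tested genes passed with a higher level. Over the 20 alternatives the log2 fold change lay between 0.23 and 0.31 and the adjusted p between 0.0123 and 0.288. The call was lost with the fetus number range as a covariate (0.25, adjusted p = 0.0597), within the lower range alone (0.25, adjusted p = 0.288), and in 8 of the 10 fits with 1 library left out (adjusted p between 0.0523 and 0.110), the exceptions being those without WT replicate 3 or Mir483Pat-KO replicate 1.

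Saa3 is a serum amyloid A gene that macrophages and other cells outside the hepatocyte lineage can also express. It measured 20.7, 13.1, 19.9, 27.9 and 35.2 CPM in WT replicates 1 to 5. In Mir483Pat-KO it measured 27.3, 29.0, 45.4, 43.2 and 42.8 CPM. The 3 highest values were Mir483Pat-KO replicates 3, 4 and 5, and the next was WT replicate 5, and these were the 4 libraries of the upper range of fetus numbers. The log2 fold change was 0.68 (1.60-fold, SE 0.21), the largest in size of the 7 tested genes in the reported fit over all libraries, and the adjusted p was 0.0645. With the range as a covariate it was 0.41 (adjusted p = 0.0889), and within the lower range alone it was 0.46 (adjusted p = 0.360). The genotype difference passed without WT replicate 5 (0.88, adjusted p = 0.0214) or without Mir483Pat-KO replicate 1 (0.77, adjusted p = 0.0425), and the adjusted p ran from 1.23e-05, without the low-count filter, to 0.360 over the 20 alternatives.

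Saa1 and Saa2, the inducible serum amyloid A genes that rise steeply in inflamed adult liver, were close to 0 in all livers. Saa1 had 2, 0, 2, 1 and 0 counts in WT and 0 in each Mir483Pat-KO library. Saa2 had 2, 0, 0, 1 and 0 counts in WT and 0 in each Mir483Pat-KO library. No library exceeded 3 counts of either gene, so no fold is given and a genotype difference was not detectable at this depth. The genes share sequence, and 13.2% of the 50-base stretches of Saa1 also occur in Saa2, so that the split between them is uncertain. Their sum was at most 0.355 CPM in WT, in replicate 1, and 0 in Mir483Pat-KO.

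The orosomucoids, also called alpha-1-acid glycoproteins, bind small lipophilic molecules in plasma. Orm1 (chromosome 4) had 13 to 32 counts per library. It measured 2.66, 1.09, 1.36, 2.16 and 1.48 CPM in WT and 2.26, 2.30, 2.45, 1.53 and 1.91 CPM in Mir483Pat-KO, with overlapping groups (log2 fold change 0.27, SE 0.25, adjusted p = 0.558). Orm2 had a single count, in WT replicate 1. Between Orm1 and Orm2, 20.4% of 50-base stretches were shared, and with Orm3, a related gene next to them with a single count in WT replicate 2, the sum ranged from 1.17 to 2.75 CPM in WT and from 1.53 to 2.45 CPM in Mir483Pat-KO.

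Lcn2 encodes lipocalin 2, which is stored in neutrophil granules and is also released by hepatocytes on inflammation. Lcn2 (chromosome 2) measured 248, 212, 187, 247 and 254 CPM in WT replicates 1 to 5 and 217, 238, 232, 219 and 228 CPM in Mir483Pat-KO replicates 1 to 5. The mutant values lay within the WT range. The log2 fold change was −0.02 (SE 0.08, adjusted p = 0.935), and its sign turned in 5 alternatives, where it was at most 0.06. The 18 neutrophil and granule markers summed to 3142 to 4728 CPM in WT and 3992 to 4631 CPM in Mir483Pat-KO. Deviations of Lcn2 from its group mean followed those of this sum over the 10 libraries (Pearson r = 0.87, Spearman rho = 0.81), with r = 0.68 over the 8 libraries left without those farthest from the median of the sum. With the other 8 marker lists r lay between −0.40 and 0.65 over the 10 libraries, highest with the B-lymphoid (0.65) and megakaryocyte markers (0.60), and between −0.43 and 0.37 over the 8 left. Orm1, with few counts, also followed the neutrophil sum, with r = 0.64 and rho = 0.68 over the 10 libraries and r = 0.48 over the 8 left. This was not particular to that sum. Over the 10 libraries r of Orm1 was 0.61 with the megakaryocyte and 0.52 with the bile duct markers. Over the 8 left these were 0.21 and 0.07, and the value largest in size was that with the endothelial markers (−0.67). These are descriptions, and both measures come from the same libraries. The gene whose deviations were most like those of Lcn2 was Cd177, a neutrophil surface protein (r = 0.98), among 12490 genes compared. Cd177 is itself among the 18 markers of the sum, so this is not a separate observation. It was followed by Ncf1, a subunit of the phagocyte oxidase (r = 0.96), and Myo1g (r = 0.96).

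**Figure D2:**
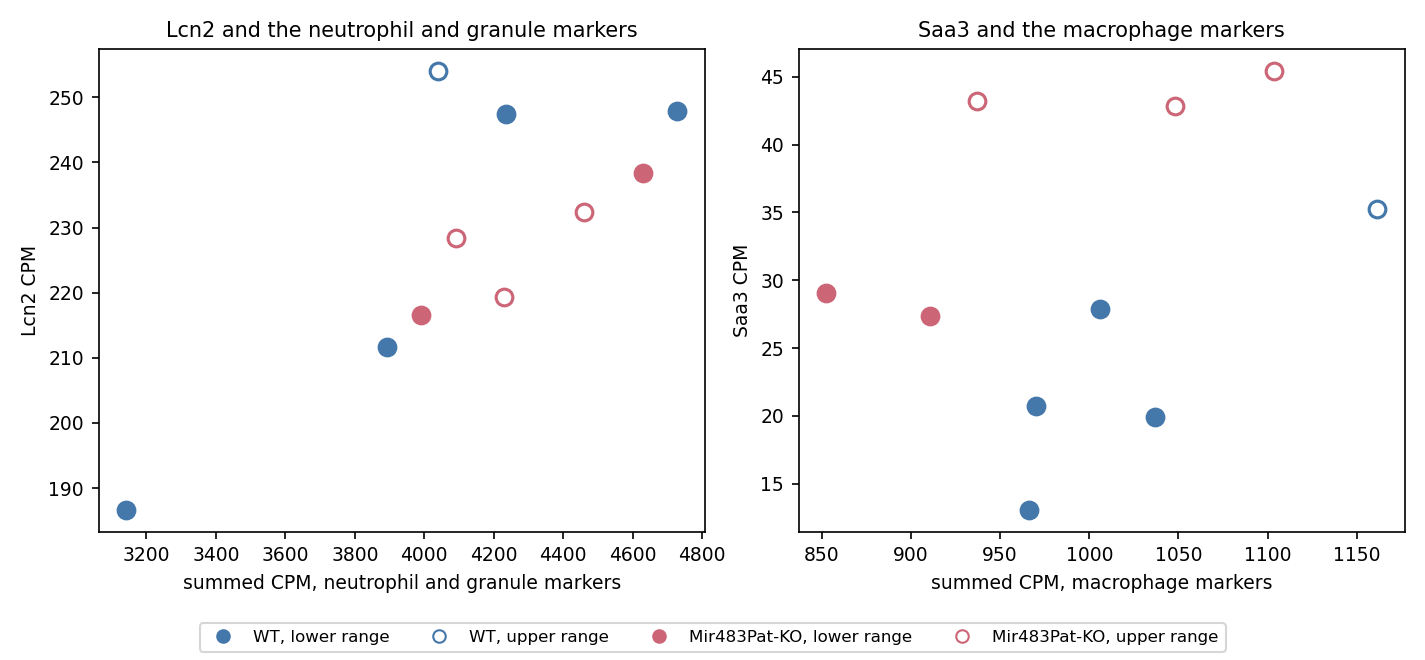
Left, Lcn2 CPM against the summed CPM of the 18 neutrophil and granule markers, and right, Saa3 CPM against the summed CPM of the 14 macrophage markers, 1 point per library, with filled points for the lower and open points for the upper range of fetus numbers. The WT library with the lowest neutrophil sum, 3142 CPM, also had the lowest Lcn2, 187 CPM, and the 4 highest Saa3 values are the open points.

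For Saa3, the same description gave r = 0.73 with the sum of the 14 macrophage markers and r = 0.82 with that of the 9 B-lymphoid markers over the 10 libraries, and r = 0.56 and 0.72 over the 8 left. With the hepatocyte markers r was −0.49 over the 10 libraries and −0.92 over the 8 left, and with the erythroid markers 0.59 and 0.46. With the other 5 marker lists r lay between −0.22 and 0.30 over the 10 libraries and between −0.57 and 0.37 over the 8 left, where its sign turned for the bile duct markers (−0.49) and the endothelial markers (0.37). The macrophage sum was 966 to 1161 CPM in WT and 853 to 1104 CPM in Mir483Pat-KO, and the B-lymphoid sum 105 to 134 CPM in WT and 122 to 146 CPM in Mir483Pat-KO. Their part in the Saa3 values was not tested. The genes most like Saa3 were H2afy2 (r = 0.97), Klhl26 (r = 0.97) and Tsc22d4 (r = 0.95). Those most like Hp were Mical2 (r = 0.94), Ces1g (r = 0.93) and Pdxk (r = 0.93), and those most like Apcs were Lrrc8d (r = 0.95), Ifi27 (r = 0.94) and Tmem38b (r = 0.93). Hpx was most like Mri1 (r = 0.94), Mms19 (r = 0.91) and Dhx35 (r = 0.91), Orm1 most like Aspg, Smim4 and Ikzf1 (r = 0.94, 0.94 and 0.93), and Saa4 most like Hspb11, Angpt2 and 2300009A05Rik (r = 0.88, 0.86 and 0.86). None of the 7 genes had another of them among its 3 most alike, and among pairs of them r ranged from −0.31 to 0.59.

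Viewed as a group, 4 of the 7 tested genes had a negative and 3 a positive log2 fold change, with a median of −0.02 against 0.0042 over all 14098 genes tested. In 0 of the 10 genes did the groups not overlap, whereas for 3.26% of all tested genes every mutant was below every WT library, and for 3.34% above. With the added demand of a fold change over 1.5, 0 of the 7 genes were called by edgeR, DESeq2 or limma-voom, and 2 were lower (Hp and Apcs) and 2 higher (Saa3 and Saa4) at an unadjusted p under 0.05. The fold demand was met by 0.872% of all tested genes on the lower and 0.355% on the higher side, and an unadjusted p under 0.05 by 10.7% and 11.5%. The 10 genes summed to 3046 ± 308 CPM in WT livers against 2555 ± 160 CPM in the mutants (SD, n = 5), with overlapping ranges of 2574 to 3394 and 2328 to 2745 CPM, and Hp made up the largest share of the difference.

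**Figure D3:**
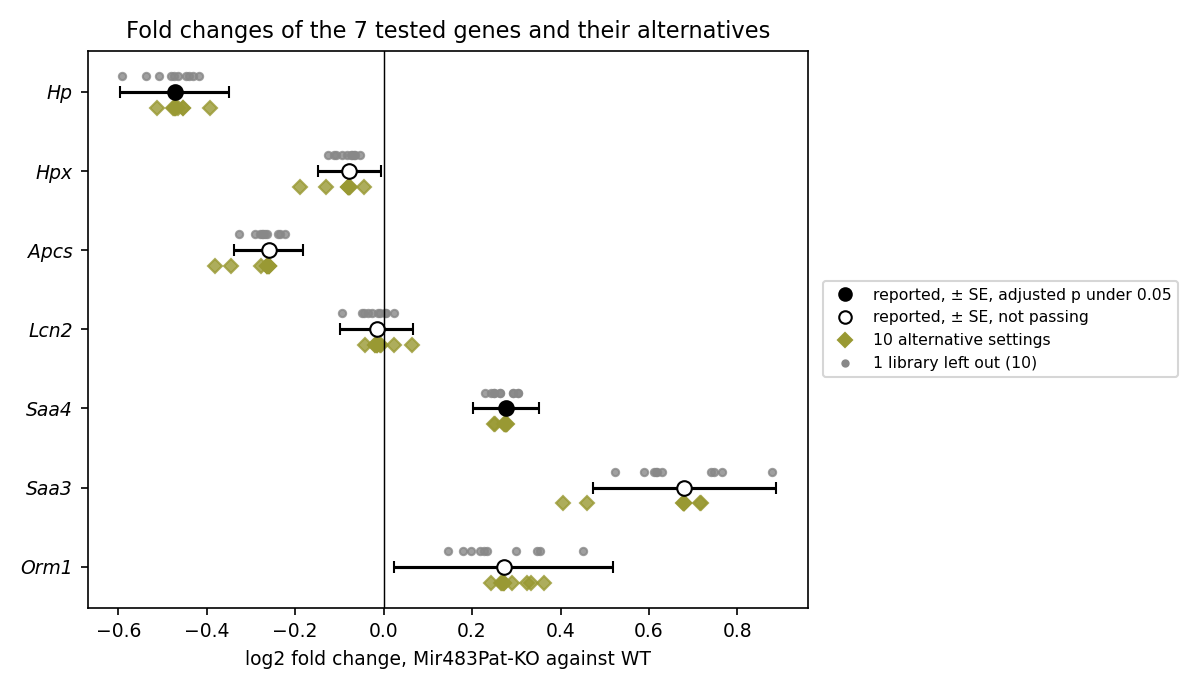
Log2 fold change in Mir483Pat-KO against WT of the 7 tested acute-phase genes, with its SE, beside the values from 10 alternative settings (diamonds) and from leaving out 1 library at a time (grey dots). Hp at −0.47 and Saa4 at 0.28 passed the test, Saa3 spread from 0.41 to 0.88 over the alternatives, and Lcn2 lay on both sides of 0.

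Some other acute-phase genes had larger fold changes than the 10. As positive acute-phase genes of the liver, a class that rises on inflammation, 27 tested genes were listed. Whether each of them, Mug1 included, rises in the mouse was not examined. Of the 27, 6 passed with a lower and 1 with a higher level, where 2.76% and 2.43% of all tested genes did. Their median log2 fold change was −0.20. Without the low-count filter 9 passed with a lower and 4 with a higher level. Serpina3m, a serine protease inhibitor, fell from 52.5 ± 10.5 to 13.4 ± 7.51 CPM (log2 fold change −1.96, adjusted p = 0.00133). Its relatives Serpina3k (−1.69, adjusted p = 0.0177) and Serpina3n (−0.48, adjusted p = 0.0262) also fell, as did the protease inhibitor Mug1 (−1.84, adjusted p = 0.0217, from 2.70 ± 1.40 to 0.741 ± 0.438 CPM) and complement C3 (−0.29, adjusted p = 0.0473). Reads of the Serpina3 and Mug genes may be shared with close relatives, which makes their split uncertain. Cp, which encodes the copper-carrying ferroxidase ceruloplasmin, rose from 566 ± 30.5 to 713 ± 43.7 CPM (0.33, adjusted p = 0.0114). The fibrinogen genes Fga and Fgb measured 11680 and 10997 CPM in WT and 10298 and 10631 CPM in Mir483Pat-KO (adjusted p = 0.168 and 0.744).

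As negative acute-phase genes, a class that falls on inflammation, 19 genes were listed, and whether each of them does so in the mouse was not examined. Of the 19, 3 passed with a lower and 1 with a higher level, against 2.76% and 2.43% of all tested genes. Their median log2 fold change was −0.15. Serpina6, the corticosteroid-binding globulin, rose from 35.7 ± 8.68 to 89.6 ± 27.2 CPM (1.33, adjusted p = 0.00306). Apoa4 (−1.31, adjusted p = 0.00385) and Apoa1 (−0.30, adjusted p = 0.0262), apolipoproteins of high-density lipoprotein, and Rbp4 (−0.41, adjusted p = 0.00580), the plasma carrier of retinol, fell. Albumin (Alb, −0.18, adjusted p = 0.190), transferrin (Trf, −0.12, adjusted p = 0.375) and fetuin A (Ahsg, −0.13, adjusted p = 0.337) did not pass. Both lists thus held genes that passed in either direction.

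**Figure D4:**
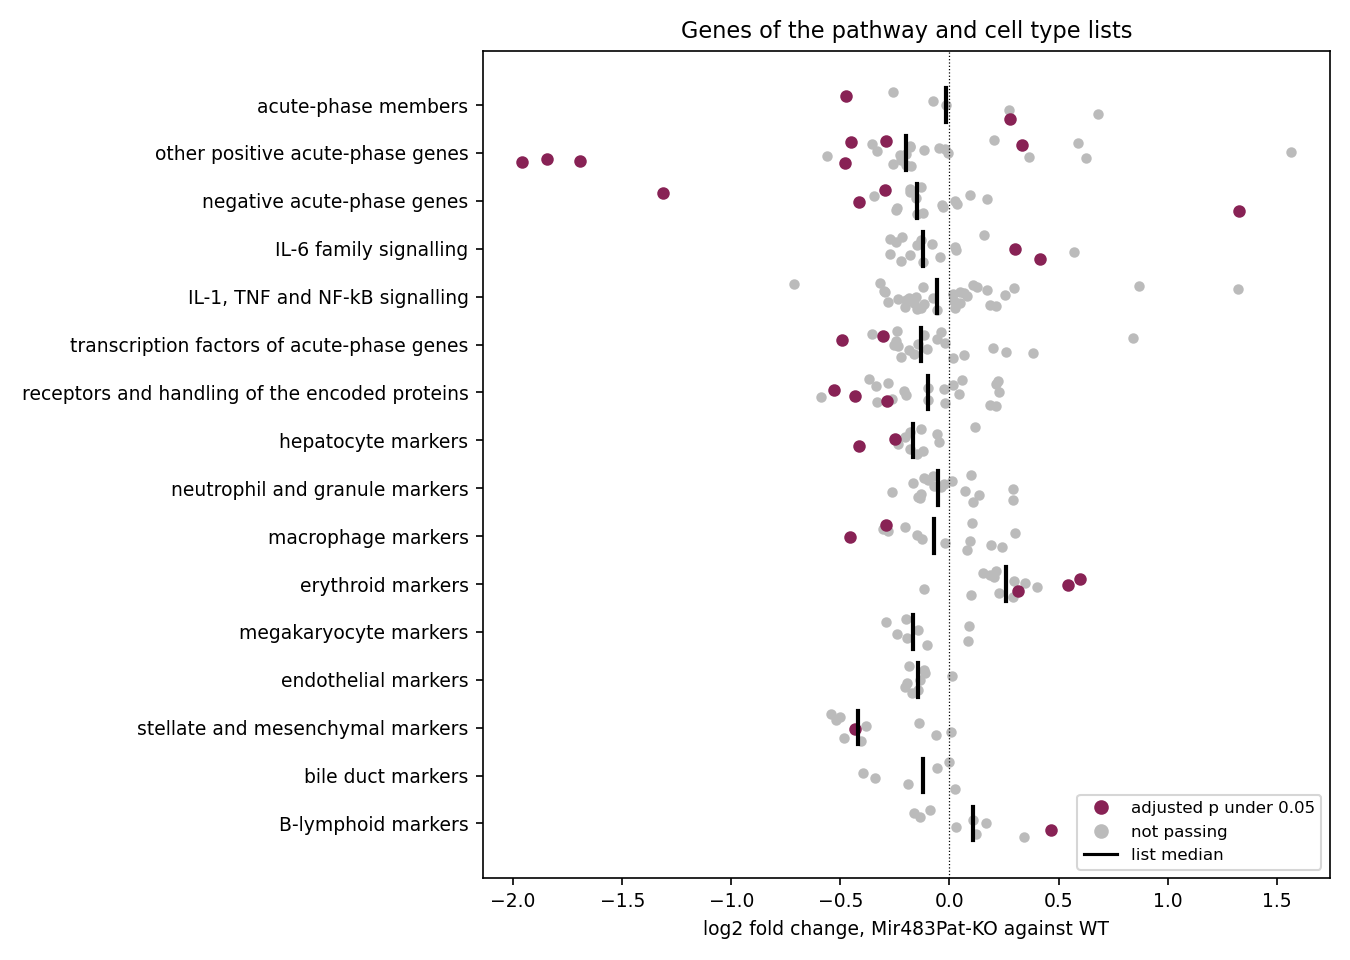
Log2 fold change in Mir483Pat-KO against WT of each tested gene in the lists of acute-phase, signalling and cell type marker genes, with genes at an adjusted p under 0.05 in purple, the others in grey and the median of each list as a black line. The 7 tested acute-phase genes have a median of −0.02, the other positive acute-phase genes −0.20, and the erythroid markers 0.26.

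Among 17 tested genes of interleukin 6 family signalling, 0 passed with a lower and 2 with a higher level, against 2.76% and 2.43% of all tested genes, and 1 passed with a higher level when the fetus number range was a covariate. With DESeq2 and without the low-count filter 1 passed with a lower level, and the number with a higher level was 0 when Mir483Pat-KO replicate 3 or either of WT replicates 4 and 5 was left out. The kinase gene Jak2 rose from 47.9 ± 4.41 to 59.0 ± 2.65 CPM (0.30, adjusted p = 0.0265) and the feedback inhibitor Socs3 from 10.7 ± 0.983 to 14.3 ± 1.96 CPM (0.42, adjusted p = 0.0379). Jak1 (0.02, adjusted p = 0.861), the receptor gene Lifr (0.03, adjusted p = 0.891) and Il6st, which encodes gp130 (−0.15, adjusted p = 0.314), did not pass. Among 33 genes of interleukin 1, tumour necrosis factor and NF-kB signalling, 0 passed by edgeR, DESeq2 or limma-voom, and 4 were lower and 2 higher at an unadjusted p under 0.05, as were 10.7% and 11.5% of all tested genes. Without the low-count filter 2 genes of this list passed with a higher level. The most abundant of these were Ikbkg, a regulatory subunit of the IkB kinase (0.12, adjusted p = 0.275), the receptor gene Il1r1 (0.17, adjusted p = 0.431) and the kinase gene Irak1 (0.07, adjusted p = 0.599).

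Of 22 tested transcription factors that act on acute-phase promoters, 2 passed with a lower level and 0 with a higher one, against 2.76% and 2.43% of all tested genes, and 3 passed with a higher level without the low-count filter and 2 with the replicate block. On the lower side 4 passed with DESeq2, where 4.37% of all genes did, and more than the 2 reported with the fetus number range as a covariate. With the GC content and length offsets 0 passed lower. Foxa2, a forkhead factor of hepatocytes, fell from 17.7 ± 2.01 to 12.6 ± 1.81 CPM (−0.49, adjusted p = 0.0201), and Creb3l3, a liver factor cleaved on stress of the endoplasmic reticulum, from 130.2 ± 5.72 to 105 ± 10.5 CPM (−0.31, adjusted p = 0.0272). Hnf4a (−0.24, adjusted p = 0.0540), Stat3 (−0.22, adjusted p = 0.0547) and Cebpa (−0.24, adjusted p = 0.116) missed the threshold. Of 23 receptors and enzymes that handle the encoded proteins and their cargo, 3 passed with a lower and 0 with a higher level, beside the same shares of all tested genes. They were Lrp1, a receptor that takes up haem bound to hemopexin (−0.43, adjusted p = 0.0310), Scarb1, a receptor of high-density lipoprotein (−0.29, adjusted p = 0.0308), and the Fc receptor gene Fcgr4 (−0.53, adjusted p = 0.0187). Without Mir483Pat-KO replicate 4, and in the lower range of fetus numbers alone, 0 genes of this list passed lower, where 1.35% and 0.138% of all genes did. The iron exporter Slc40a1 (−0.02, adjusted p = 0.925) and the biliverdin reductase Blvrb (0.22, adjusted p = 0.226) did not pass.

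The make-up of the libraries was followed with marker lists, whose sums overlapped between the groups. The 14 erythroid markers summed to 17730 to 22509 CPM in WT and 20739 to 28732 CPM in Mir483Pat-KO, with a ratio of the means of 1.32. Of these markers 3 passed with a higher level, as did 2.43% of all tested genes, Hbb-bs among them (0.54, adjusted p = 0.0120), whereas Hba-a1 (0.29, adjusted p = 0.205) did not. A positive log2 fold change was found for 13 of the 14. At an unadjusted p under 0.05, 11 were higher, as were 11.5% of all tested genes, and with DESeq2 5 passed, where 3.95% of all genes did. Within the lower range of fetus numbers the erythroid sums were 17730 to 22509 CPM in WT and 20739 to 22410 CPM in Mir483Pat-KO. The 10 stellate and mesenchymal markers summed to 654 to 1191 CPM in WT and 592 to 904 CPM in Mir483Pat-KO, with a ratio of the means of 0.751 and a median log2 fold change of −0.42. Of these 1 passed with a lower level, against 2 with limma-voom, 3 with DESeq2 and 6 without the low-count filter. Against 2.76% and 2.43% of all tested genes on the lower and the higher side, 2 of the 12 hepatocyte and 2 of the 14 macrophage markers passed with a lower level and 1 of the 9 B-lymphoid markers, Rag1 (0.47, adjusted p = 0.0169), with a higher one. With DESeq2, 4 hepatocyte and 3 macrophage markers passed lower, where 4.37% of all genes did. Of the hepatocyte markers 11 had a negative log2 fold change. At an unadjusted p under 0.05, 6 of them were lower, as were 10.7% of all tested genes. Among neutrophil, megakaryocyte, endothelial and bile duct markers 0 passed by edgeR, DESeq2 or limma-voom, with 3, 0, 2 and 0 at an unadjusted p under 0.05 in either direction, beside 10.7% of all tested genes on the lower and 11.5% on the higher side. Without the low-count filter 2 neutrophil markers passed with a higher level. The most abundant neutrophil markers were S100a9 and Ngp (0.11 and 0.14, adjusted p = 0.593 and 0.400), and the most abundant macrophage markers Csf1r and Cd5l (−0.13 and 0.30, adjusted p = 0.448 and 0.112). The part of these shifts in the values of Hp, Saa4 and the other acute-phase genes was not tested.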

How the data were processed

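Libraries were made from polyA RNA of 10 livers. The authors aligned the reads to GRCm38 with STAR and deposited unnormalized read counts by Ensembl identifier. How strand and reads with several matches were handled is not given in the sources used here. A symbol was matched for 55141 of the 55401 genes. Totals ranged from 10831350 to 14765880, and 3 counts were taken as the upper limit behind a 0, for counting error alone. Replicates were the samples labelled with a genotype.

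The count test was that of edgeR 4.0.16 in R 4.3.3 (filterByExpr, TMM, quasi-likelihood F-test of genotype), with Benjamini-Hochberg adjustment over 14098 genes. The standard error was the log2 fold change divided by the square root of F. The common biological coefficient of variation was 0.111. In 10 runs on simulated data made from these libraries, a mean of 89.35% of 200 genes changed 2-fold was recovered, while unchanged genes made up 6.88% of those passing. Log2 CPM used a prior count of 2. Lengths, exons and 3′ UTRs came from GENCODE M21, and microRNAs and promoters from RefSeq. Sequence sharing was counted over 50-base stretches, and promoter identity over a global alignment.

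Named were all 10 genes, up to 5 passing genes with the smallest p and the 3 most abundant of each pathway list, the 2 most abundant of each marker list, and the 3 genes most like each tested gene by the correlation of log2 CPM deviations from group means, for a mean log2 CPM of at least 1. Of the marker lists named last, only some of these are described. Lists shared between 0 and 7 genes with the others, among them Alb, Trf and Stat3. The genes and lists were chosen with earlier results of these data known. Alternatives were RLE scaling, DESeq2 1.42.0, limma-voom (limma 3.58.1), a robust fit, other filters, the replicate number as a block, the fetus number range as a covariate or its lower part alone, GC content and length offsets, and leaving out each library. Figures were drawn with Python 3.11.15 and matplotlib 3.10.9.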

Additional observations from a re-analysis of the deposited data

Results flagged for a closer look

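Single libraries that stood apart from the other 4 of their group by Dixon's test were looked for in 17 sets of 5 values, where chance marks about 1 set in 20. Hpx in WT replicate 3, at 755 CPM, was the lowest of its group, and the nearest library had 847 CPM. Orm2 in WT replicate 1, at 0.0888 CPM, was the highest of its group, and this value is a single count.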

How the results depend on the processing

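The number of genes that passed with a lower level was 1 as reported and 1 in 5 of 10 alternatives. This gene was Hp, except with the GC content and length offsets, where Apcs passed (adjusted p = 0.00348) and Hp did not (adjusted p = 0.0530). It was 2 with DESeq2, without the low-count filter and with the replicate block, and 0 in the robust fit and in the lower range of fetus numbers alone. It lay between 0 and 1 with 1 library left out, and without Mir483Pat-KO replicate 3 that gene was Apcs. The number with a higher level was 1 as reported and in 6 of 10 alternatives, 2 without the low-count filter and with the replicate block, and 0 with the range covariate and in the lower range alone. It lay between 0 and 2 with 1 library left out, and without WT replicate 5 the gene was Saa3 in place of Saa4. The cause was not tested, except that the lower range held only 6 libraries.

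Lcn2 turned to 0.0233 in the lower range and to 0.0633 with the GC content and length offsets, and spread from −0.0944 to 0.0240 with 1 library left out. The other 6 tested genes kept their direction in all 20 alternatives. Saa3 passed without the low-count filter (adjusted p = 1.23e-05).

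Across genes, the deviations of WT and mutant libraries with equal numbers correlated at 0.06, 0.13, 0.04, −0.05 and 0.26, and other pairs at −0.02 on average, so the numbers were not taken to pair the libraries. With the replicate block Saa3 (0.72, adjusted p = 0.00375) and Apcs (−0.26, adjusted p = 0.0426) also passed, and over all genes 596 were lower and 742 higher, against 389 and 342 without it. Within the lower range 20 were lower and 3 higher, and with the range covariate 543 and 646. Depth limited Saa1, Saa2 and Orm2, which had at most 2 counts in any library.

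Counts of passing genes in the other lists also moved. Under DESeq2, 11 other positive acute-phase genes passed lower (6 as reported), 7 negative acute-phase genes (3), 4 transcription factors (2) and 5 erythroid markers higher (3), where over all genes 4.37% passed lower and 3.95% higher (2.76% and 2.43% as reported). Erythroid markers passing higher reached 6 with the replicate block (5.26% of all genes), without the low-count filter (2.23%) and with the GC content and length offsets (2.09%). Transcription factors passing lower were 5 with the range covariate and 0 with the offsets, where 3.85% and 2.5% of all genes did. Stellate markers passing lower were 2 with limma-voom, with the replicate block and with at least 10 counts in every library, 3 with DESeq2, 6 without the low-count filter and 0 with the offsets. Over all genes the share passing lower was 2.84% with limma-voom, 4.23% with the replicate block and 3.11% with that minimum of counts. Of the interleukin 1, tumour necrosis factor and NF-kB list 1 passed lower with the offsets. Without the low-count filter 2.20% of all genes passed lower and 2.23% higher. In the lower range alone 0 genes of these 4 lists, of the receptors or of the interleukin 6 family passed, apart from 1 negative acute-phase gene that was higher. With 1 library left out, between 1 and 8 other positive acute-phase genes passed lower, and between 0 and 3 receptors, the fewest of both without Mir483Pat-KO replicate 4. Over all genes the share passing lower in these fits ran from 1.35%, also without that library, to 3.34%.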
